A study of Rattus norvegicus with 9 samples.

Results

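Ghrelin, its receptor and the growth hormone axis downstream of it were followed here through 8 genes in the rat prostate. The genes were the hormone Ghrl, the ghrelin-acylating enzyme Mboat4, the ghrelin receptor Ghsr, the growth hormone receptor Ghr, the prolactin receptor Prlr, the transcription factors Stat5a and Stat5b, and the feedback inhibitor Socs2. They were chosen by symbol, through the RefSeq accession that the array design gives for each probe. This found 10 of the 30356 probes used, for 8 of 15163 gene symbols, with 3 probes for Ghr and 1 for each of the other genes. The rule used no measured value.

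The study asked how ghrelin given by mouth alters gene expression in a rat model of benign prostatic hyperplasia (BPH), the non-malignant enlargement of the prostate. Male Sprague Dawley rats, aged 6 weeks at the start, formed 3 groups of 8 animals, and prostates from 3 rats per group were hybridized, each to its own 1-colour Agilent array. The sham group had a sham operation, subcutaneous corn oil and oral vehicle, which was water. The BPH group was castrated and received subcutaneous dihydrotestosterone, 3 mg/kg daily for 4 weeks, with the oral vehicle. The BPH+ghrelin group had the same castration and dihydrotestosterone, and oral rat ghrelin at 20 nmol/kg daily for 2 weeks, beginning 2 weeks after the androgen. That is the treatment in the study's methods, and a legend of the same study gives another dose and intraperitoneal injection. The BPH groups therefore differ from sham in castration and in androgen together, and in these whole-tissue samples fewer cells of a type and less RNA per cell cannot be told apart.

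Ghrelin is a peptide hormone made mainly by the stomach. It activates its receptor, a G protein-coupled receptor best known from the pituitary and hypothalamus, only after the enzyme encoded by Mboat4 has attached a fatty acid to it, and it then stimulates release of growth hormone. Growth hormone and prolactin act on related cytokine receptors, which use the kinase JAK2 to phosphorylate STAT5A and STAT5B. The STAT5 proteins enter the nucleus, bind a palindromic DNA site and induce, among others, SOCS2 and CISH, which dampen the same receptors. In the prostate, prolactin and STAT5 are known for supporting the epithelium.

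The signal on each array is given as log2 of the processed spot intensity after quantile normalization. A difference of 1 on this scale is a 2-fold difference, and levels of different probes are not set against each other. A probe was well above background where the scanner software marked it so on that array. Before normalization the median signal ran from 40.9 for sham replicate 2 to 133 for BPH replicate 1, and 61.3% of probes were well above background on sham replicate 2 against at least 69.5% on the other arrays. On 17851 probes, 1 array of each group lay between the other 2 of its group at most probes, namely sham replicate 3 at 77.0%, BPH replicate 2 at 74.8% and BPH+ghrelin replicate 2 at 72.4%, and the p-values take the arrays as independent. By the scan times in the file headers, the 3 BPH arrays and BPH+ghrelin replicate 1 were scanned together, BPH+ghrelin replicates 2 and 3 with sham replicates 1 and 2, and sham replicate 3 apart. No scan held both BPH and sham arrays.

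Markers of the labelled tissue were present. Of 10 secretory epithelium markers, 9 had a probe and all 9 were well above background on all 9 arrays, among them Krt18, a keratin of luminal cells, at 13.97 to 14.73. Their summed signal was 350900 to 358400 in sham, 211400 to 237900 in BPH and 220600 to 251700 in BPH+ghrelin. Seminal vesicle and coagulating gland markers, 7 of 8 with a probe, summed to 90300 to 157800 in sham, 755 to 28320 in BPH and 558 to 3911 in BPH+ghrelin. The adipocyte markers, 8 of 10 with a probe, varied mainly within groups and are given beside Ghr.

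Promoter sequences are shown for 3 windows because Stat5a and Stat5b, which lie next to each other on chromosome 10 and are transcribed away from each other, were not both called, and because a Prlr window held the only STAT site found in these genes. RefSeq windows (build GRCr8) existed for 6 of the 8 genes. The 250 bases upstream of each start are printed 5′ to 3′ on the strand of the gene, with motif matches on either strand in capitals.
Stat5a, chr10:86285609-86285858, plus strand: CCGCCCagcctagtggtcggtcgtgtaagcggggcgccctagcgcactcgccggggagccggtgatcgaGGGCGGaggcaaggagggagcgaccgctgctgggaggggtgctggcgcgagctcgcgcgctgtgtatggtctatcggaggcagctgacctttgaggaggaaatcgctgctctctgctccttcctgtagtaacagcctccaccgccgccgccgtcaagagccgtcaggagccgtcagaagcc
Stat5b, chr10:86275953-86276202, minus strand: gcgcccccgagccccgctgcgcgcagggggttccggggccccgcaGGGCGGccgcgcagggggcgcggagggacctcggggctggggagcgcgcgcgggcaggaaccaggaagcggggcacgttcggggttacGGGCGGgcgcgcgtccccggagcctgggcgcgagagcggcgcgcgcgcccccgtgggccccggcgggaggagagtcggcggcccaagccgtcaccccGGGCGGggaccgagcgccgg
Prlr, chr2:60909409-60909658, plus strand: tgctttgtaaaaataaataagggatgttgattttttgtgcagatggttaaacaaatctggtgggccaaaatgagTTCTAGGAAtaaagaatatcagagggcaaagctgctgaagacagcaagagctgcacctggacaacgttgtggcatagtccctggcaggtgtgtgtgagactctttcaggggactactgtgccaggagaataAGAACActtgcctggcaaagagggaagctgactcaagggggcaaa
The capitals in the Stat5a and Stat5b windows mark the SP1 box GGGCGG, with 2 matches upstream of Stat5a and 3 upstream of Stat5b. That motif is in 30.5% of the 33469 promoter windows of the same length. The windows consisted of G and C to 67.6% for Stat5a and 84.0% for Stat5b. In the Prlr window the first capitals mark the STAT site TTCNNNGAA, which begins 176 bases before the start and is in 7.67% of windows, and the second mark the androgen response element core AGAACA, which begins 45 bases before the start and is in 17.5% of windows. That core was also found upstream of Ghr. The full androgen response element, this core and its inverse 3 bases apart, was in 0.012% of windows and in none of the windows of these genes. A match describes the letters and not a bound site.

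In the prostate after castration and dihydrotestosterone, Stat5a was 6.56-fold lower than in sham, and 7.12-fold lower where ghrelin was added. Stat5b, its neighbour and closest relative, was not called, and its values overlapped between all 3 groups. The receptors Ghsr, Ghr and Prlr were measured and none passed the test in any comparison, although Ghsr was higher on all BPH+ghrelin arrays than on all BPH arrays. Ghrl and Socs2 were not well above background on any of the 9 arrays, and Mboat4 was on 2.

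**Figure D1:**
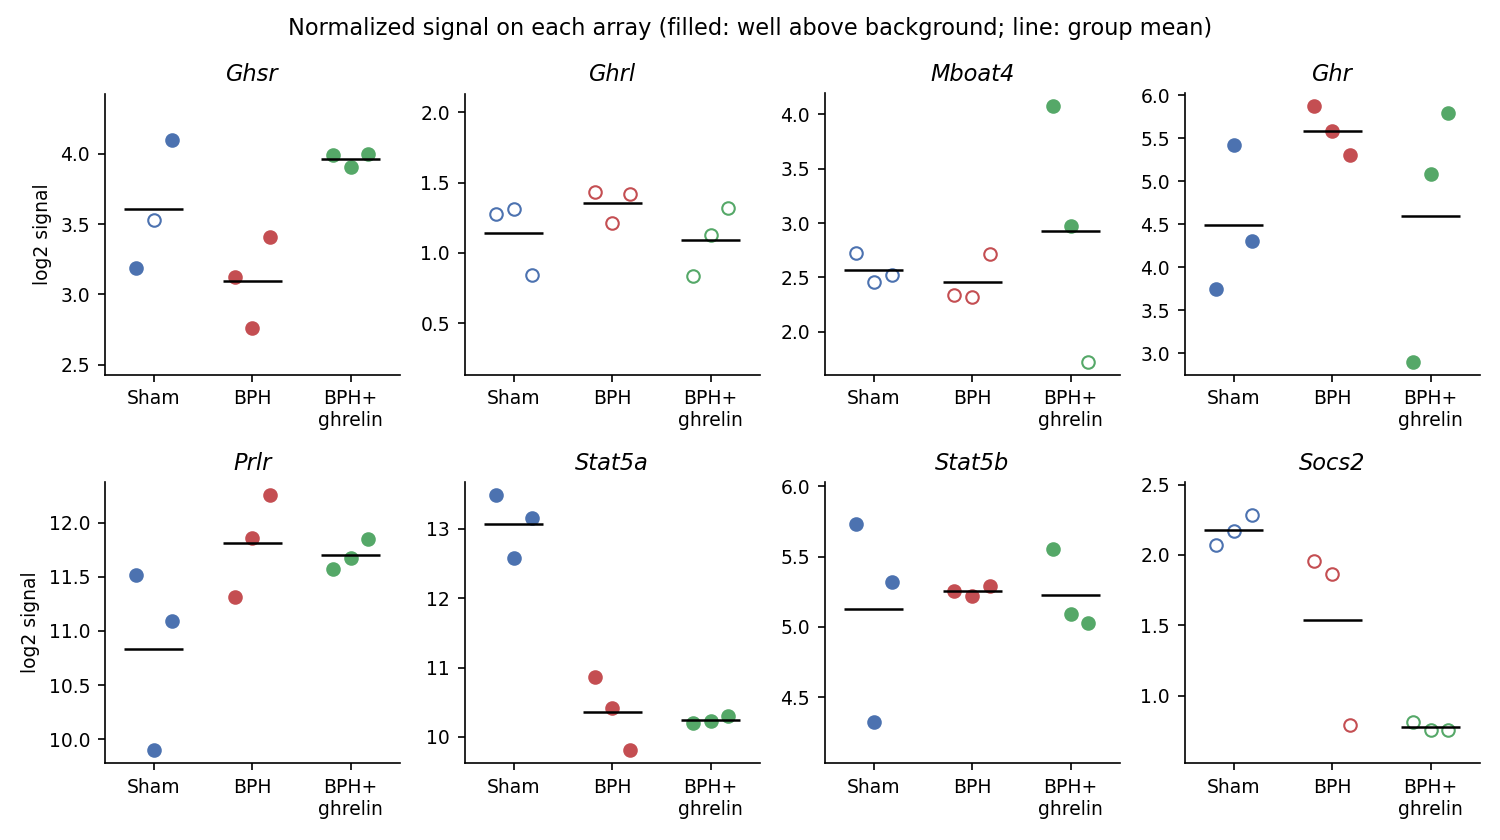
Each panel plots the normalized log2 signal (y axis, own scale per gene) of 1 gene on the 9 arrays by group (x axis). Filled points are well above background, open points are not, and the black line is the group mean of 3 arrays; Ghr is shown by its brightest probe. The Stat5a points of sham sit at 12.58 to 13.49, above the 9.81 to 10.86 of all BPH and BPH+ghrelin arrays.

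Tests used limma on all 9 arrays, with p-values adjusted by Benjamini-Hochberg over all genes tested in a comparison, and a gene was called at an adjusted p under 0.05. Testing required a probe marked well above background for 3 or more among the 6 arrays of the comparison, which held for Ghsr, Ghr, Prlr, Stat5a and Stat5b. In BPH against sham 1 of these 5 genes was called, beside 4.34% of the 19548 genes tested. In BPH+ghrelin against BPH 0 of 5 were called, beside 1.48% of 19747 genes, and at an unadjusted p under 0.05 there was 1, Ghsr, beside 21.1%. In BPH+ghrelin against sham 1 of 5 was called, beside 6.29% of 19195 genes. The arrays of the groups did not overlap for 1, 1 and 2 of the 5 genes in these comparisons, beside 31.3%, 39.2% and 30.4% of all genes tested. Comparisons share arrays, so the calls against sham are not independent of each other. The smallest p that an exact permutation test over 3 arrays per group allows is 0.1.

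**Figure D2:**
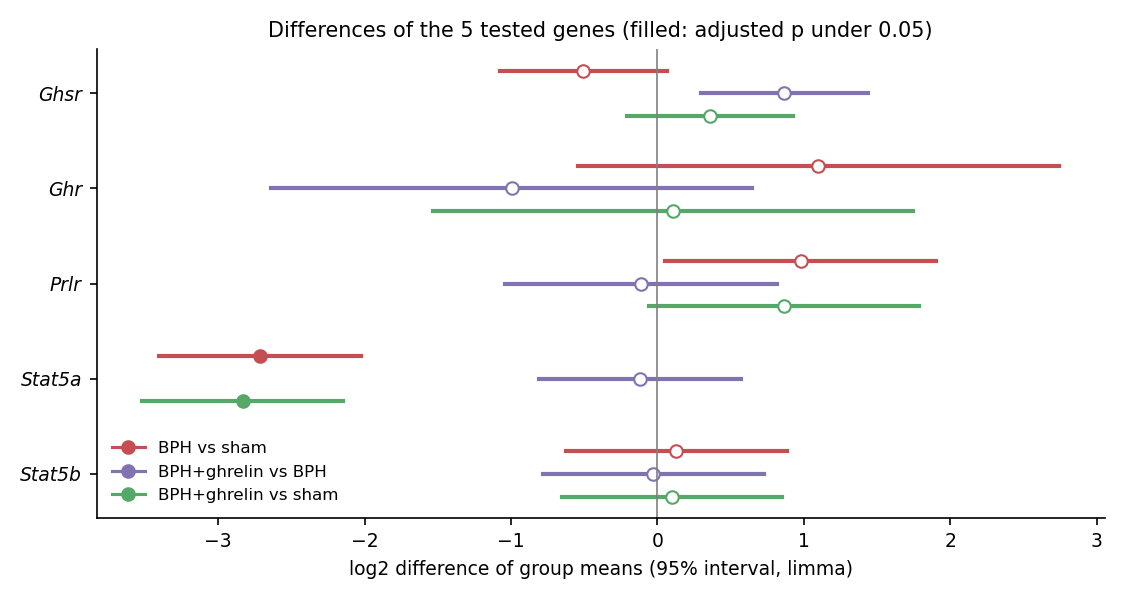
Points are the log2 differences of group means (x axis) for the 5 tested genes (y axis), with 95% intervals from limma, 3 arrays per group. Filled points have an adjusted p under 0.05, which were Stat5a in BPH and in BPH+ghrelin against sham, at -2.71 and -2.83.

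The ligand of the axis was not measurable in this tissue. Ghrl, which encodes the precursor of ghrelin, gave log2 signals of 1.27, 1.31 and 0.85 in sham, 1.43, 1.22 and 1.42 in BPH and 0.84, 1.12 and 1.32 in BPH+ghrelin. None of its 8 to 10 spots per array was well above background. A level under that limit was not detectable, and no fold is given.

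Mboat4, encoding ghrelin O-acyltransferase, was well above background on BPH+ghrelin replicates 1 and 2, at 4.08 and 2.97. The third BPH+ghrelin array read 1.72 and was not. The BPH arrays read 2.34, 2.32 and 2.71 and the sham arrays 2.73, 2.45 and 2.53, all not well above background. The mean of the BPH+ghrelin arrays, 2.92 with an SD of 1.18, was at least 1.29-fold the background limit of the BPH arrays. That bound rests on BPH+ghrelin replicate 1, since the mean of replicates 2 and 3 was 2.35, under the mean limit of 2.55 for the BPH arrays, and the gene was not tested.

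Ghsr, the receptor through which ghrelin acts, was measurable but dim, well above background on 8 of 9 arrays, with sham replicate 2 the exception. Its log2 signal was 3.19, 3.53 and 4.10 in sham, 3.12, 2.76 and 3.41 in BPH, and 3.99, 3.90 and 4.00 in BPH+ghrelin. The ghrelin-treated arrays lay close together and all above the BPH arrays, while the sham arrays overlapped both groups. Chat, the acetylcholine-synthesizing enzyme of cholinergic neurons, named after its values were seen, was also higher in BPH+ghrelin (4.73 to 5.46) than in BPH (3.05 to 3.74), with sham at 3.92 to 5.55. The 9 neural and Schwann cell markers, of which 6 to 8 were well above background, summed to 2994 to 6183 in BPH+ghrelin, 917 to 3155 in BPH and 1320 to 1682 in sham. Most of that sum came from Uchl1 on every array, and the median log2 signal of the list overlapped between BPH+ghrelin (4.77 to 5.46) and BPH (4.78 to 5.29). The part of these cells in the Ghsr difference was not tested. BPH+ghrelin exceeded BPH by 0.87 (SE 0.249, 95% interval 0.29 to 1.44), or 1.82-fold, and this missed the call at an adjusted p of 0.115 in limma, with an exact permutation p of 0.1. In the scan that held both groups, BPH+ghrelin replicate 1 was 0.89 above the BPH mean. With normexp background correction, which compresses dim probes, the difference was 0.10. When the 6 arrays were normalized and fitted alone, it was 0.88 with an adjusted p of 0.0378 in limma. That fit called 2106 of all 19747 genes, against 293 in the main fit.
The order of the Ghsr group means was BPH+ghrelin, sham, BPH, and neighbours in that order did not differ beyond their spread. BPH differed from sham by -0.51 (SE 0.248, adjusted p = 0.231 in limma), and BPH+ghrelin from sham by 0.36 (SE 0.248, adjusted p = 0.424). Within the scan holding sham replicates 1 and 2, BPH+ghrelin replicates 2 and 3 were 0.59 higher on average. Without sham replicate 3, the highest sham array, the differences from sham were -0.26 for BPH and 0.61 for BPH+ghrelin, and without sham replicate 1 the latter was 0.15. Without BPH replicate 2 that of BPH was -0.34. With normexp they were -0.055 and 0.045, with 75th percentile scaling -0.82 and 0.19, and with the scan as a block -0.30 and 0.59.

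Ghr, the growth hormone receptor, was read by 3 probes, and all 3 had their highest group mean in BPH. The brightest probe, well above background on 9 of 9 arrays, gave 3.75, 5.42 and 4.30 in sham, 5.87, 5.59 and 5.31 in BPH, and 2.90, 5.09 and 5.80 in BPH+ghrelin. The BPH arrays lay close together, whereas sham and BPH+ghrelin each spread more widely and overlapped BPH. By this probe Ghr was 1.10 higher in BPH than in sham (SE 0.715, 95% interval -0.54 to 2.74, adjusted p = 0.35 in limma) and BPH+ghrelin differed from BPH by -0.99 (adjusted p = 0.449). BPH+ghrelin and sham differed by 0.10 (95% interval -1.53 to 1.74, adjusted p = 0.948). These values rest on single arrays and settings. The difference of BPH from sham was 0.73 without sham replicate 1, 0.36 with normexp and 3.55 with the scan as a block. That of BPH+ghrelin from BPH was -0.15 without BPH+ghrelin replicate 1, -1.60 without BPH+ghrelin replicate 3, -0.24 with normexp and -2.69 with the scan as a block. That of BPH+ghrelin from sham ran from -0.50 without BPH+ghrelin replicate 3 to 0.95 without BPH+ghrelin replicate 1.
The second Ghr probe gave 4.37, 4.08 and 3.52 in BPH, all well above background, 2.66, 2.72 and 3.59 in BPH+ghrelin, of which only replicate 3 was, and 2.89, 2.82 and 1.84 in sham, none of which was. BPH was thus at least 1.68-fold above sham by this probe, with measured means of 3.99 and 2.52, and no p is given because the sham values were not well above background. The third probe was well above background only in BPH, at 3.31, 3.45 and 3.14, against 2.63, 0.90 and 2.56 in sham and 2.43, 2.33 and 2.23 in BPH+ghrelin. Its bounds were at least 1.08-fold over sham and at least 1.50-fold over BPH+ghrelin, likewise with no p. An average of the 3 probes, 1.28 higher in BPH than in sham, draws on sham values not well above background for 2 of the probes and supports no call.

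Adipocyte genes moved with the brightest Ghr probe across single arrays. The median log2 signal of the 8 adipocyte markers was 4.82, 8.32 and 7.32 in sham, 9.01, 8.54 and 7.66 in BPH and 3.92, 7.53 and 8.55 in BPH+ghrelin, and 5 to 7 of the 8 were well above background. Adipoq, which encodes the fat cell hormone adiponectin, read 3.28, 12.03 and 10.48 in sham and 11.43, 10.95 and 9.99 in BPH. In BPH+ghrelin it read 0.58, not well above background, on replicate 1, and 10.88 and 11.94 on the others. The arrays lowest for these markers, sham replicate 1 and BPH+ghrelin replicate 1, were also the lowest of their groups for this Ghr probe. The other 2 Ghr probes were not well above background on these arrays. The genes most like the brightest Ghr probe over the 9 arrays, among 9686 genes well above background on every array, were Nnat (Pearson r = 0.983) and Lpl (r = 0.98), the latter encoding lipoprotein lipase and one of the markers. The points share arrays and groups. The part of adipose tissue in the Ghr differences was not tested.

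**Figure D3:**
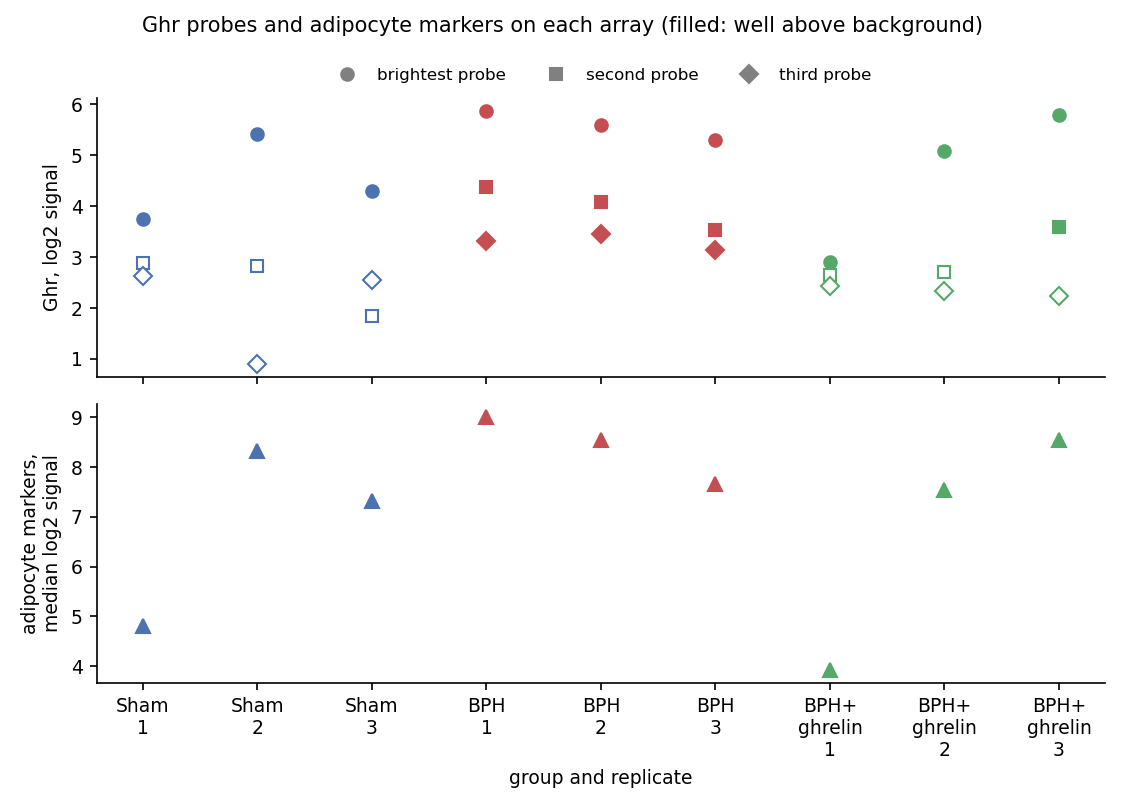
The upper panel plots the log2 signal of the 3 Ghr probes on each array (x axis, group and replicate), filled where well above background, and the lower panel the median log2 signal of 8 adipocyte markers on the same arrays. BPH+ghrelin replicate 1 is lowest in both, at 2.90 for the brightest Ghr probe and 3.92 for the markers.

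Prlr, the prolactin receptor, was well above background on every array, on all of its 6 to 10 spots. Its log2 signal was 11.51, 9.90 and 11.09 in sham, 11.32, 11.86 and 12.26 in BPH, and 11.57, 11.67 and 11.85 in BPH+ghrelin. Sham replicate 2 was the lowest array by more than 1 log2 unit, and the sham arrays overlapped BPH but lay below all BPH+ghrelin arrays. Prlr was 0.98 higher in BPH than in sham (SE 0.404, 95% interval 0.05 to 1.90), which missed the call at an adjusted p of 0.172 in limma, and 0.86 higher in BPH+ghrelin than in sham (adjusted p = 0.237). Without sham replicate 2, which had the lowest share of probes above background, the differences were 0.51 and 0.40. BPH and BPH+ghrelin differed by -0.11 (95% interval -1.04 to 0.81, adjusted p = 0.896). Among the genes compared, C9h2orf49 (r = 0.99) and Rabl2 (r = 0.982) had profiles most like it over the 9 arrays.

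Stat5a, which carries the signal of growth hormone and prolactin receptors to the nucleus, was the called gene of the axis. Its log2 signal was 13.49, 12.58 and 13.15 in sham, 10.86, 10.42 and 9.81 in BPH, and 10.20, 10.23 and 10.30 in BPH+ghrelin. Every sham array lay above every array of both castrated groups, with a gap wider than the range of any group. The probe was printed repeatedly, and its 9 or 10 usable spots per array, all well above background, had an SD of 0.03 to 0.10. Against sham, Stat5a differed by -2.71 on the log2 scale in BPH (SE 0.300, 95% interval -3.40 to -2.03, adjusted p = 0.00451 in limma) and by -2.83 in BPH+ghrelin (SE 0.299, 95% interval -3.52 to -2.15, adjusted p = 0.00251). Each exact permutation p was 0.1, the smallest possible. BPH+ghrelin and BPH differed by -0.12 (95% interval -0.81 to 0.57, adjusted p = 0.85).
The Stat5a calls ended when the scan was fitted as a block, at -2.61 with an adjusted p of 0.452 for BPH and -2.77 with an adjusted p of 0.0703 for BPH+ghrelin. Over all genes that fit called 2 in BPH and 85 in BPH+ghrelin against sham, where the main fit called 849 and 1207. In the scan with sham replicates 1 and 2, the mean difference of BPH+ghrelin replicates 2 and 3 was -2.77, and in the scan with BPH, BPH+ghrelin replicate 1 differed from the BPH mean by -0.16. The secretory epithelium and seminal vesicle markers given above were lower in the same groups, and their part in the Stat5a difference was not tested. Among the epithelial markers Krt18 overlapped between sham and both other groups, and Krt8, another luminal keratin, ran from 10.38 to 10.74 in sham and from 11.23 to 11.56 in the other groups. Pbsn, a secreted androgen-dependent protein of the rat prostate, ran from 16.16 to 16.41 in sham and from 13.11 to 14.46 in the other groups. The genes with profiles most like Stat5a over the 9 arrays were Rnf180 (r = 0.996) and Pou3f1 (r = 0.993).

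Stat5b was well above background on 9 of 9 arrays. It read 5.73, 4.33 and 5.32 in sham, 5.25, 5.22 and 5.29 in BPH, and 5.56, 5.09 and 5.03 in BPH+ghrelin. The groups overlapped throughout, and the sham arrays spread most because of sham replicate 2. The differences were 0.13 for BPH against sham (95% interval -0.63 to 0.88, adjusted p = 0.824 in limma), -0.03 for BPH+ghrelin against BPH (95% interval -0.78 to 0.73, adjusted p = 0.972) and 0.10 for BPH+ghrelin against sham (95% interval -0.65 to 0.85, adjusted p = 0.89). Cnot4 (r = 0.986) and Sec31a (r = 0.98) had the most similar profiles.
The responses of the paired STAT5 genes were compared directly by the within-array difference of Stat5a and Stat5b. From sham to BPH Stat5a shifted by -2.84 relative to Stat5b, and from sham to BPH+ghrelin by -2.93. The arrays of the groups did not overlap in this measure, and each exact permutation p was 0.1, the smallest possible. Between BPH+ghrelin and BPH the relative shift was -0.09 (exact permutation p = 0.9).

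Socs2, a STAT5-induced inhibitor of growth hormone receptor signalling, was not well above background on any array. It read 2.07, 2.17 and 2.29 in sham, 1.96, 1.87 and 0.79 in BPH, and 0.81, 0.75 and 0.76 in BPH+ghrelin, and at most 2 of its 8 to 10 spots per array were well above background. Values below that limit have no order and no fold is given.

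The remaining pathway was described by 74 further genes in 6 lists, of which 68 had a probe and 55 to 57 were tested per comparison. In BPH against sham 1 of 56 was called, the STAT5 target gene Elf5, beside 4.34% of all genes tested. In BPH+ghrelin against BPH 0 of 57 were called in limma, beside 1.48%, while at an unadjusted p under 0.05 there were 5 higher and 6 lower, beside 21.1% of all genes. In BPH+ghrelin against sham 2 of 55 were called, Elf5 and Irs2, beside 6.29%. The median differences of the tested genes were 0.08, -0.04 and 0.01, beside 0.04, 0.02 and 0.04 over all genes tested. Arrays of the groups did not overlap for 5 higher and 6 lower pathway genes in BPH against sham, beside 31.3% of all genes tested. For BPH+ghrelin against BPH these counts were 10 and 14, beside 39.2%.

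Elf5 encodes an epithelial transcription factor that acts with STAT5 in the mammary gland. Its log2 signal was 10.11, 9.95 and 9.95 in sham, 8.27, 8.73 and 9.14 in BPH, and 8.72, 8.64 and 8.66 in BPH+ghrelin. As for Stat5a, each sham array exceeded all others and the castrated groups overlapped. It differed from sham by -1.29 in BPH (SE 0.204, 2.45-fold lower, adjusted p = 0.0171 in limma) and by -1.34 in BPH+ghrelin (SE 0.204, 2.52-fold lower, adjusted p = 0.0116), and the 2 castrated groups differed by -0.04 (adjusted p = 0.925). The call against sham in BPH ended without BPH replicate 2 (adjusted p = 0.093) or sham replicate 3 (0.0728), and that in BPH+ghrelin without BPH+ghrelin replicate 2 (0.0645) or sham replicate 3 (0.0531), with differences of -1.30 to -1.36 in these fits. With the scan as a block neither was called (-1.39 and -1.38, adjusted p = 0.584 and 0.148), and the BPH call also ended with the 6 compared arrays alone (adjusted p = 0.077), with the probes averaged (0.0838) and with the replicate number as a block (0.0568). The summed secretory epithelium signal, the summed seminal vesicle and coagulating gland signal and Pbsn were lower in the same groups. Krt8 was higher and Krt18 overlapped. The part of all these markers in the Elf5 difference was not tested.
Irs2, an adaptor of insulin, growth factor and cytokine receptors, separated the ghrelin-treated arrays. It read 7.11, 7.60 and 7.11 in sham, 7.53, 7.22 and 6.82 in BPH, and 6.35, 6.29 and 6.36 in BPH+ghrelin. All ghrelin-treated arrays were below all others. The difference was -0.94 against sham (SE 0.208, 1.92-fold lower, adjusted p = 0.038 in limma) and -0.86 against BPH (SE 0.209, adjusted p = 0.0852, not called). The call against sham ended when any BPH+ghrelin array or sham replicate 3 was left out, at adjusted p-values of 0.093 to 0.142, with the scan as a block (-1.03, adjusted p = 0.23), with no filter on dim probes (adjusted p = 0.0601), with the replicate number as a block (adjusted p = 0.0755) and with normexp (-0.58, adjusted p = 0.0555). Against BPH the single ghrelin-treated array in the same scan differed by -0.84. Irs2 was called against BPH with the 6 compared arrays alone and without BPH replicate 3. Those fits called 2106 and 396 of all 19747 genes, against 293 in the main fit.
Single markers of other cells were also lower on all BPH+ghrelin arrays, and those given here were chosen after their values were seen. The smooth muscle myosin gene Myh11 read 10.37 on all BPH+ghrelin arrays by its brighter probe, against 11.40 to 11.47 in sham and 11.18 to 11.42 in BPH. The matrix gene Lum ran from 4.62 to 5.39 in BPH+ghrelin, against 6.33 to 6.57 in sham and 6.34 to 6.98 in BPH. By its brighter probe the leukocyte gene Ptprc ran from 7.62 to 7.83, against 8.42 to 8.60 and 8.33 to 8.71. Not all markers were lower, since the collagen gene Col1a1 of the matrix list ran by its brighter probe from 11.77 to 12.27 in BPH+ghrelin, against 10.55 to 11.54 in sham and 10.60 to 12.27 in BPH. The summed signals of the basal epithelium markers, 5 of 7 with a probe, did not overlap. They were 14200 to 15430 in BPH+ghrelin, 10470 to 11800 in sham and 13120 to 13930 in BPH. The median log2 signal of the basal list gave another order, with sham highest at 10.63 to 11.38. By that median BPH+ghrelin (10.32 to 10.70) overlapped both sham and BPH (10.16 to 10.44). Over the whole smooth muscle, matrix and leukocyte lists the summed signals of BPH+ghrelin overlapped those of another group. For the 7 smooth muscle markers, all well above background on every array, they were 7891 to 9772 in BPH+ghrelin, 9624 to 16200 in sham and 10600 to 16460 in BPH. For the 7 fibroblast and matrix markers, 6 or 7 of them well above background, they were 18550 to 25770, 12960 to 23940 and 19420 to 29630. For the 10 leukocyte markers, of which 7 or 8 were well above background, they were 33940 to 45130, 44390 to 59290 and 39770 to 47220. Most of the leukocyte sum came from Lyz2 on every array. The median log2 signal of that list was 6.29 to 6.50 in BPH+ghrelin, 7.46 to 7.87 in sham and 6.27 to 7.81 in BPH. The part of these cells in the Irs2 difference was not tested.

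**Figure D4:**
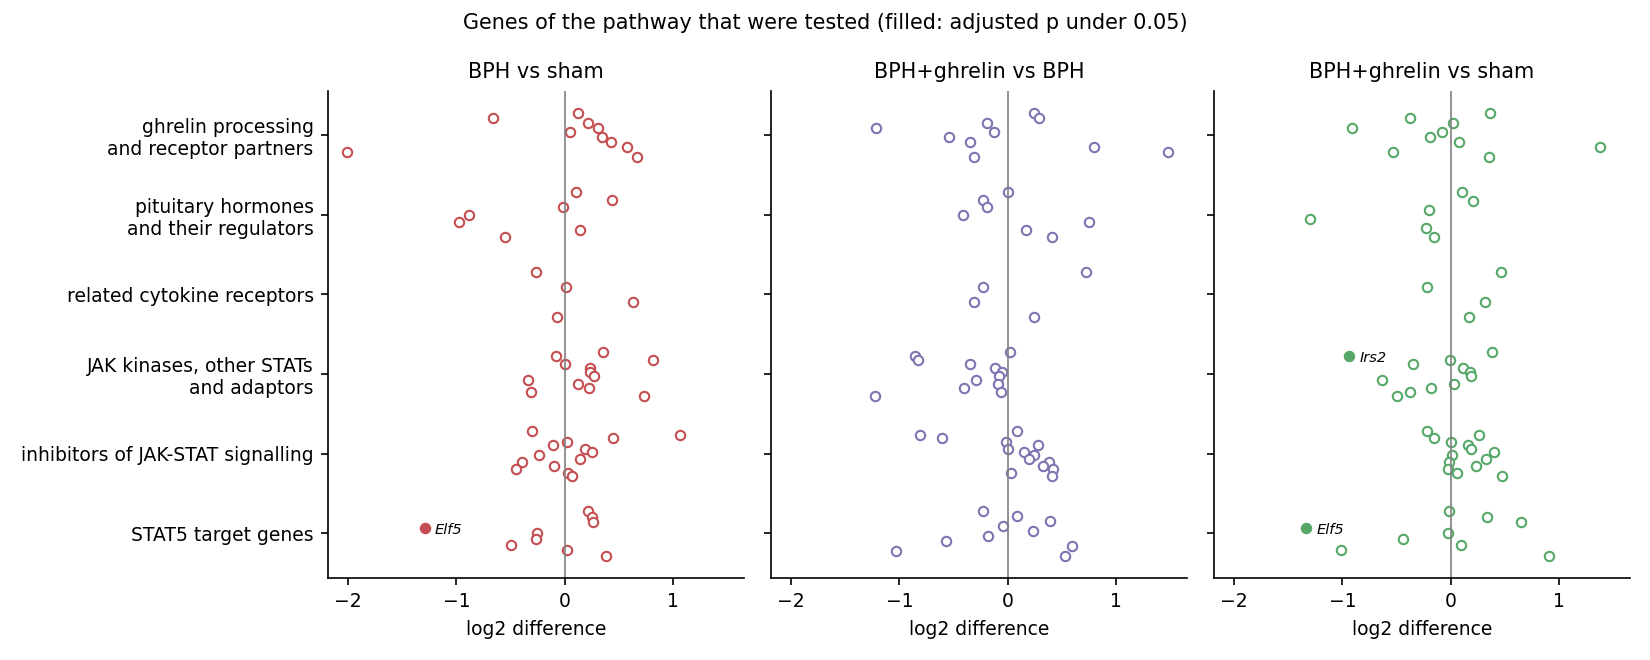
Each open or filled circle is the log2 difference (x axis) of 1 tested pathway gene, by list (rows) and comparison (panels). Filled circles have an adjusted p under 0.05 and are named: Elf5 in BPH against sham, and Elf5 and Irs2 in BPH+ghrelin against sham. The rest lie on both sides of 0.

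Among hormone and releasing factor genes, Gh1, Prl, Sst and Sstr1 were not well above background on any array. Of 13 such genes 7 were tested in BPH against sham and in BPH+ghrelin against BPH and 6 in the third comparison, and none was called. The somatostatin receptor genes Sstr3 and Sstr5, receptors of the hormone that inhibits growth hormone release, did not overlap between BPH and sham, at -0.98 (adjusted p = 0.0685) and -0.56 (adjusted p = 0.0965) in limma. They were 2 of the 7 genes tested there, beside 31.3% of all genes without overlap. Sstr3 on BPH replicate 3, at 2.89, was not well above background. From BPH to BPH+ghrelin Sstr5 differed by 0.40 (adjusted p = 0.224) and Ghrh, the growth hormone-releasing hormone, by -0.23 (adjusted p = 0.634), again without overlap.
Of the 12 ghrelin processing and receptor partner genes 10 were tested and none was called. Plcb3, a phospholipase downstream of the ghrelin receptor, was 0.67 higher in BPH than in sham without overlap (adjusted p = 0.0835 in limma). Pcsk1, a protease that processes prohormones, was 1.48 higher in BPH+ghrelin than in BPH without overlap (adjusted p = 0.342). Between BPH and sham Pcsk1 differed by -2.01 (adjusted p = 0.174 in limma), with overlap, since sham ran from 4.99 to 8.94. Cd36 encodes a fatty acid transporter that also binds growth hormone-releasing peptides and is expressed by fat cells. It differed by -1.22 between BPH+ghrelin and BPH (adjusted p = 0.109 in limma). The lowest Cd36 array was BPH+ghrelin replicate 1 at 6.85, the array lowest for the adipocyte markers.
Of the related cytokine receptors, Lepr was not well above background on any array and none of the 4 tested was called. Lifr, the receptor of leukemia inhibitory factor, was 0.63 higher in BPH than in sham (adjusted p = 0.24 in limma) and differed by -0.31 between BPH+ghrelin and BPH (adjusted p = 0.6). It read 5.00, 3.59 and 4.69 in sham, where replicate 2 was not well above background, and 5.04 to 5.07 in BPH. Epor, the erythropoietin receptor, was 0.72 higher in BPH+ghrelin than in BPH (adjusted p = 0.101).

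Of 12 tested kinases, other STATs and adaptors, 9 had a difference above 0 in BPH against sham, with a median of 0.23, and 11 a difference below 0 in BPH+ghrelin against BPH, with a median of -0.21, beside 53.7% and 51.7% of all genes above 0. With 75th percentile scaling these counts were 9 and 9, with medians of 0.03 and -0.14. None was called in these comparisons. Jak1, a kinase used by many cytokine receptors, was 0.82 higher in BPH than in sham (adjusted p = 0.105 in limma). Stat6 was 0.73 higher in BPH than in sham (adjusted p = 0.366 in limma) and differed by -1.23 between BPH+ghrelin and BPH (adjusted p = 0.207). It read 4.12 to 4.58 in BPH, 3.99, 3.49 and 3.41 in sham, and 4.01, 1.85 and 3.54 in BPH+ghrelin. The second array of sham and that of BPH+ghrelin were not well above background for Stat6, so both differences rest partly on such values. Jak2, the kinase of the growth hormone and prolactin receptors, differed by 0.00 between BPH and sham and by -0.35 between BPH+ghrelin and BPH (adjusted p = 0.992 and 0.262).
All 14 JAK-STAT inhibitors with a probe were tested and none was called in any comparison. Socs3, like Socs2 an inhibitor induced by cytokines, differed by -0.45 between BPH and sham (adjusted p = 0.133 in limma), and Sirpa, a phosphatase-recruiting receptor, by -0.39 (adjusted p = 0.224). Between BPH+ghrelin and BPH 11 of the 14 differences were positive, with a median of 0.17, beside 51.7% of all genes above 0. With normexp 9 were positive, with a median of 0.02, and with 75th percentile scaling 11, with a median of 0.33. The arrays did not overlap for 5 higher and 2 lower genes, beside 39.2% of all genes tested. Pias1 and Pias2, ligases that restrain STAT proteins, differed by -0.81 and -0.60 (adjusted p = 0.437 and 0.131). Cish, a STAT5-induced inhibitor, differed by -0.31 between BPH and sham (adjusted p = 0.278).
Of 12 STAT5 target genes, Csn2 and Igfals were not well above background on any array, and Elf5 was the only one called. Igf1, the growth factor induced by growth hormone, was well above background on every array and differed by -0.26 between BPH and sham and by 0.23 between BPH+ghrelin and BPH (adjusted p = 0.724 and 0.793 in limma). Pim1, a kinase gene induced by STAT5, differed by -0.50 between BPH and sham without overlap (adjusted p = 0.351). Between BPH+ghrelin and BPH, the milk protein gene Wap differed by 0.53 (adjusted p = 0.42) and the repressor Bcl6 by 0.09 (adjusted p = 0.645).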

How the data were processed

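Total RNA of 9 rat prostates was labelled with Cy3 and hybridized to 1-colour Agilent arrays. The deposited files hold spot intensities and quality flags that the authors made with Agilent Feature Extraction 11.0.1.1, per the file headers. A deposited table holds log2 values that the authors obtained by quantile normalization in GeneSpring GX, and it served as an alternative, its columns each matching their own array best.

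Processed intensities were taken to log2, 313 to 741 outlier spots per array were removed, and spots of a probe were averaged. The 9 arrays were quantile normalized, no spot being saturated. A probe counted as well above background where over 50% of its spots were marked so. A gene was its passing probe with the highest mean, named through RefSeq symbols, which 17998 of 30356 probes (59.3%) had. Probes without a symbol were tested under their accession. The fit used limma 3.58.1 in R 4.3.3 on all 9 arrays in 3 groups with no covariate, tested on simulated data first. The number of arrays limits the precision. A fold against a group with no array well above background is a bound, computed against the higher of the probe's own signal and the lowest signal well above background on each array.

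The members and lists were chosen with earlier results of these data known. The text names all 8 members, each called pathway gene, from each list the 2 tested genes with the largest difference among those without overlap, in BPH against sham and in BPH+ghrelin against BPH, and the 2 genes most correlated with each member measured on every array. Cish, Igf1 and Jak2, for their place in the pathway, and single cell type markers were added after their values were seen. Alternatives were 75th percentile scaling, normexp background correction on median spot signals with an offset of 50, other probe filters, the 6 compared arrays alone, the mean of a gene's probes, the replicate number or the scan as a block, the deposited table, limma's trend and robust options, a 2-fold rule, and leaving out each array. Testing probes in place of genes was chosen after seeing the data.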

Additional observations from a re-analysis of the deposited data

How the results depend on the processing

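The Stat5a difference from sham kept its direction under all 10 other settings and all 6 single-array omissions in each comparison, from -2.81 to -2.61 and -2.96 to -2.44 in BPH, and from -2.90 to -2.77 and -3.08 to -2.62 in BPH+ghrelin. Its call ended only with the scan as a block, at -2.61 and -2.77 (adjusted p = 0.452 and 0.0703), which left 0 called members and 0 called pathway genes in each comparison with sham, and turned Stat5b to -0.27 in BPH against sham and to 0.30 in BPH+ghrelin against BPH. Over all genes the fit with the scan as a block called 2 of 19548 in BPH against sham and 85 of 19195 in BPH+ghrelin against sham. The main fit called 849 and 1207. The fit with that block borrows the link between BPH and sham from the BPH+ghrelin arrays. With the probes of a gene averaged, 2 members (Stat5a and Ghr at 1.28, the latter with 2 of 3 probes below background in sham) and 0 pathway genes were called in BPH against sham. There 810 of all 19548 genes were called. With the 6 compared arrays alone, Ghsr was called in BPH+ghrelin against BPH (0.88, 1 member) with 5 pathway genes, and 0 pathway genes in BPH against sham. Over all genes, 2106 of 19747 were then called in BPH+ghrelin against BPH and 181 of 19548 in BPH against sham. The main fit called 293 and 849. Without the filter on dim probes, 2 members (Stat5a and Socs2, the latter below background throughout) and 1 pathway gene were called in BPH+ghrelin against sham. In that fit 805 of all 26905 genes were called.

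With 75th percentile scaling the median of all genes moved by -0.126 in BPH against sham, and the split of called genes was 287 higher and 610 lower there against 422 and 427, and 243 and 272 against 98 and 195 in BPH+ghrelin against BPH. Normexp gave 174 and 214 in the latter. Under that scaling 2 pathway genes were called in BPH against sham, Stat5b turned to -5.02e-05 in BPH and -0.066 in BPH+ghrelin against sham, and Prlr and Stat5a turned to 0.12 and 0.027 in BPH+ghrelin against BPH. The 2-fold rule took 2 members (Ghr and Stat5a) and 3 pathway genes in BPH against sham, and 4 pathway genes in each of the other comparisons. Over all genes tested it took 8.16% in BPH against sham, 6.11% in BPH+ghrelin against BPH and 7.4% in BPH+ghrelin against sham.

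Leaving out single arrays gave 0 to 6 called pathway genes in BPH against sham (6 without sham replicate 1), 0 to 1 in BPH+ghrelin against BPH and 0 to 4 in BPH+ghrelin against sham. Over all genes these fits called 119 to 3068 of 19548 (3068 without sham replicate 1), 3 to 396 of 19747 and 226 to 1927 of 19195. Differences not called ran through 0, for Stat5b from -0.27 to 0.43 in BPH and -0.30 to 0.40 in BPH+ghrelin against sham and from -0.19 to 0.069 between the BPH groups, for Prlr from -0.36 to 0.11 and Stat5a from -0.39 to 0.13 between the BPH groups, and for Ghr from -0.50 to 0.95 in BPH+ghrelin against sham. The cause of these changes was not tested.

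Same-numbered arrays did not deviate together in every pair. The correlation was 0.376 for replicate 1 of BPH+ghrelin and sham and -0.182 to 0.0776 for the others, so the numbers were not taken as pairs. With the replicate block, Stat5a was called at -2.71 (adjusted p = 0.0142) and -2.83 (adjusted p = 0.00926), 0 pathway genes were called in BPH against sham and 1 in BPH+ghrelin against sham, and over all genes 242, 20 and 462 were called against 849, 293 and 1207. Signal over background limits what can be said of Ghsr, Mboat4, Ghrl and Socs2.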
